A study of Mus musculus with 18 samples.

Results

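The G1 cyclins Ccnd1, Ccnd2, Ccnd3 and Ccne1, the CDK inhibitors Cdkn1a, Cdkn1b and Cdkn2a, and Trp53 with its target genes Mdm2 and Ccng1 were followed in differentiating mouse embryonic stem cells (mESCs) that lack Nsd1, a histone H3K36 methyltransferase. These 10 genes were taken by symbol from a table of 20703 genes, and all 10 were in it. RNA was sequenced in bulk from E14 mESCs, an established line, with normal Nsd1 (WT) or with a homozygous deletion of an exon of Nsd1 (KO). Cells were collected at day 0, in medium with LIF, and at day 2 and day 4 of monolayer differentiation, after LIF and the feeder layer of mouse embryonic fibroblasts had been withdrawn. The KO cells were 2 lines, KO-1 and KO-2, each grown from a single cell after CRISPR editing of E14 cells that already carried a Flag tag at the end of Nsd1. Whether the WT libraries came from the tagged or the parental cells is not given in the sources used here. Every line had 2 biological replicates at each day, which gave 2 WT and 4 KO libraries per day and 18 libraries in all. The labels do not say that these were separate cultures, so p-values measure the spread between libraries, and the 4 KO libraries of a day stand for 2 clones.

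D cyclins pair with Cdk4 and Cdk6, and cyclin E pairs with Cdk2, and the 2 kinase complexes phosphorylate the retinoblastoma protein, which frees E2F factors to switch on the genes of S phase. The p21 protein of Cdkn1a and the p27 protein of Cdkn1b hold these kinases in check, and Cdkn2a encodes both p16Ink4a, which blocks Cdk4 and Cdk6, and p19Arf, which blocks Mdm2. Mdm2 is the ubiquitin ligase that marks p53, the product of Trp53, for degradation, and p53 in turn activates Mdm2, Cdkn1a and Ccng1. Mouse embryonic stem cells are known for a short G1 phase that lengthens as they differentiate.

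The values deposited by the authors are log2 values from DESeq2's variance stabilizing transformation (VST). Inverting the transformation gave whole counts and counts divided by the authors' size factors, which are called normalized counts here. Libraries held from 9309874 to 23921193 counts on genes. At day 2 the WT libraries were the shallowest of all, with 9309874 and 9356867 counts. Over genes with at least 20 counts in a pair, the replicates of KO-1 differed most at day 0 and day 4, with a mean chi-square per gene of 12.5 and 12.6 between the 2 libraries, against 2.22 to 6.56 in the other 7 pairs. The transformation compresses differences of weakly expressed genes, so a fold change on the VST scale understates the change of a gene such as Cdkn2a or Ccnd2. For that reason each comparison was repeated with limma-voom, which works on the recovered counts. A gene was called when the adjusted p of limma, with Benjamini-Hochberg adjustment over all genes, was under 0.01 and the absolute log2 fold change over 0.58. In bulk RNA, fewer cells of a type and less RNA per cell cannot be told apart.

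Nsd1 itself checks the labels, although transcripts that lack the deleted exon are still counted. Its normalized count at day 0 was 3517 ± 202 for WT (SD, n = 2) and 718 ± 85.4 for KO (SD, n = 4). The same groups gave 3059 ± 403 and 942 ± 71.2 at day 2, and 2268 ± 222 and 818 ± 236 at day 4. The KO libraries were below the WT libraries at every day. Markers of mESCs (10 genes, such as Pou5f1, Nanog and Sox2) summed to 96851 and 98919 normalized counts in WT and to 90971 to 96883 in KO at day 0, with Tdgf1 the most abundant and no marker at 0. At day 2 the sum was 32093 ± 2653 in WT (SD, n = 2) and 37142 ± 3844 in KO (SD, n = 4), and the libraries overlapped (30217 and 33969 in WT, 33310 to 41916 in KO). The single markers went both ways on that day, with 5 of the 10 called higher in KO and 1 lower, beside 6.38% of all genes called in either direction. Sox2 had 2048 ± 22.1 normalized counts in WT and 6562 ± 284 in KO, and Esrrb 428 ± 11.96 and 2718 ± 60.4, whereas Pou5f1, the marker called lower, had 8886 ± 705 and 5266 ± 618. Of 9 neuroectoderm markers, 2 were called lower in KO at day 2 (Otx2, with 2345 ± 99.1 in WT and 515 ± 277 in KO, and Nes, with 2249 ± 125 and 772 ± 93.0) and 2 higher (Tubb3, with 618 ± 75.9 and 1664 ± 104, and Sox1, with 26.8 ± 5.64 and 198 ± 31.5). At day 4 the sum of the mESC markers was 18667 ± 446 in WT (SD, n = 2) and 27005 ± 1246 in KO (SD, n = 4). Of the 10, 8 were called higher in KO and 1 lower, beside 7.58% of all genes called in either direction. The most abundant marker in WT was Tdgf1, at 8090.5 and 8556 normalized counts, whereas no marker passed 5024 in a KO library. Markers of the primitive streak and mesendoderm (10 genes, such as T and Mixl1) summed to 37365 ± 406 in WT (SD, n = 2) and 1272 ± 277 in KO (SD, n = 4) at day 4, so libraries of day 2 and day 4 differ in markers of cell state as well as in genotype. At day 0 the sums of other marker lists were also higher in KO, without overlap, although single markers went both ways. The 9 neuroectoderm markers summed to 1617 ± 7.69 in WT and 3337 ± 46.9 in KO (SD, n = 2 and 4). Tubb3 was the most abundant, Tubb3 and Nes were called, and 3 of the 9 log2 fold changes were negative. The 10 primitive endoderm markers summed to 4924 ± 41.0 and 6747 ± 935. Lamb1 was the most abundant (2929 ± 87.3 and 4792 ± 381) and alone called. Of these 10, 8 had a negative log2 fold change, and limma-voom called 2 higher and 4 lower. The 9 trophectoderm markers summed to 1968 ± 16.6 and 2643 ± 302, with none called. Tfap2c was the most abundant (1454 ± 6.77 and 2338 ± 224). Of these 9, 5 had a negative log2 fold change, and limma-voom called 1 higher and 2 lower. The part of these differences in the results of each day was not tested.

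At day 0, none of the 10 genes was called between KO and WT, beside 541 of 20703 genes (2.61%) over the whole table. In that comparison 6 of the 10 had an unadjusted p under 0.05 in limma, beside 39.4% of all genes, and limma-voom called 2 of them, Ccnd2 and Cdkn2a, beside 13.3% of all genes. At day 2, Ccnd1, Cdkn1a and Cdkn2a were higher in KO, beside 4.01% of all genes called higher, and no gene of the 10 was lower, with 6.38% of all genes called in either direction (831 higher and 490 lower, 1007 and 355 after each library was centred on its median, and 2136 and 2813 with limma-voom). At day 4, Cdkn2a, Mdm2 and Ccng1 were higher, beside 3.67% of all genes called higher, and none was lower, with 7.58% called in either direction. Limma-voom called 6 of the 10 at day 2, beside 23.9% of all genes, and 3 at day 4, beside 23.9%. On the VST scale, with 3 genes called at each of day 2 and day 4, Cdkn2a was the one that both days shared. With limma-voom both days shared Cdkn2a and Mdm2, the latter at log2 0.67 and 0.90.

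The KO and WT libraries did not overlap for 6 of the 10 genes at day 0, beside 47.4% of all genes. They did not overlap for all 10 at day 2, beside 57.5%, and for 8 at day 4, beside 49.8%. At day 2 the KO libraries were all above the WT libraries for 8 genes, beside 26.2% of all genes, and all below for 2, Ccnd2 and Ccne1, beside 31.4%.

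**Figure D1:**
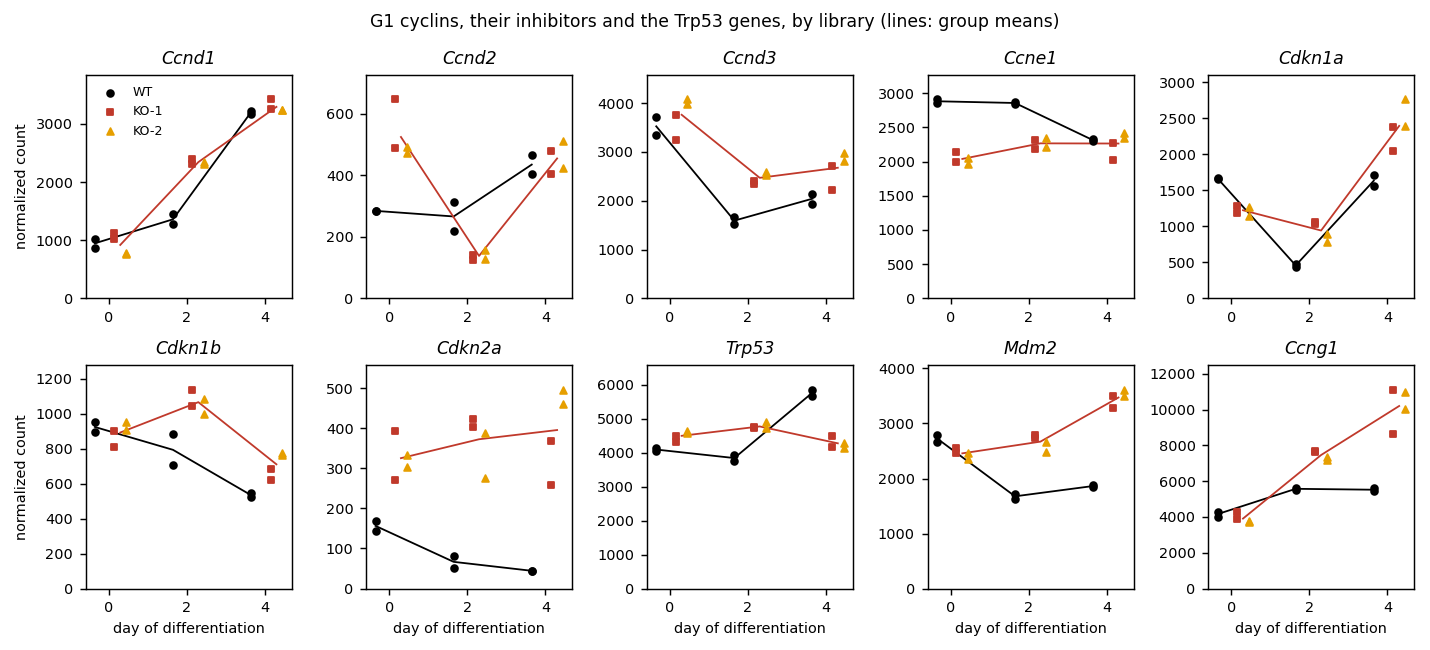
Normalized counts (y axis, linear, from 0) of the 10 genes in each of the 18 libraries by day of differentiation (x axis). Black circles are WT, red squares KO-1 and orange triangles KO-2, moved sideways for sight, and lines join the means of WT and of KO. The courses of Ccnd2 cross between day 0 and day 2, those of Trp53 cross between day 2 and day 4, and Cdkn2a in KO lies above WT at every day.

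Among the D cyclins, Ccnd1 was called between genotypes at day 2 alone, Ccnd2 had its lowest KO values at day 2, and Ccnd3 did not fall as low in KO as in WT. Ccnd1 (ENSMUSG00000070348, chromosome 7) encodes cyclin D1. WT libraries of day 0 held 865 and 1027 normalized counts of it, those of KO-1 1123 and 1017, and those of KO-2 756 and 777. The day 2 values were 1442 and 1276 in WT, 2317 and 2396 in KO-1, and 2341 and 2314 in KO-2. At day 4 the values were 3226 and 3173 in WT, 3420 and 3261 in KO-1, and 3244 and 3241 in KO-2. All KO libraries lay above WT at day 2 and, by a small margin, at day 4, whereas at day 0 the groups overlapped, with KO-2 lowest. The KO to WT ratio of mean normalized counts was 1.72 at day 2 and 1.03 at day 4. By limma on the VST values, KO exceeded WT at day 2 by log2 0.60 (SE 0.08, adjusted p = 6.2e-06), and by 0.79 with limma-voom. It passed the fold threshold narrowly, and was 0.49 after quantile normalization and 0.53 without replicate 2 of WT at day 2, values that were not called. Over time, Ccnd1 rose from day 2 to day 4 in WT (log2 0.97, SE 0.10, adjusted p = 5.76e-08 in limma) and from day 0 to day 2 in KO (log2 0.99, SE 0.07, adjusted p = 3.55e-10 in limma). At the other step the increase passed the threshold on p but not on fold, with a log2 difference of 0.36 from day 0 to day 2 in WT and of 0.40 from day 2 to day 4 in KO. The KO effect itself was larger at day 2 than at day 0, by 0.63 (SE 0.12, adjusted p = 0.000559 in limma). It was not called with KO-1 alone (0.49), without replicate 2 of WT at day 0 (0.55) or at day 2 (0.57), or without replicate 1 of KO-2 at day 0 (0.58).

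Ccnd2 (ENSMUSG00000000184, chromosome 6) encodes cyclin D2. At day 0 the normalized counts were 284 and 285 in WT, 647 and 489 in KO-1, and 492 and 472 in KO-2. At day 2 the values were 220 and 313 in WT, 125 and 141 in KO-1, and 129 and 157 in KO-2. At day 4 they were 465 and 405 in WT, 479 and 406 in KO-1, and 425 and 511 in KO-2. KO was thus above WT at day 0, below it at day 2 and overlapping with it at day 4. The ratio of KO to WT means was 1.84, 0.518 and 1.05 in the order of the days. Limma on the VST values put the difference at log2 0.42 for day 0 (SE 0.07, adjusted p = 0.000125) and −0.34 for day 2 (SE 0.07, adjusted p = 0.000594), both under the fold threshold. With limma-voom the fold changes were 0.85 and −0.94, and both were called. Within KO, Ccnd2 fell from day 0 to day 2 (log2 −0.80, SE 0.06, adjusted p = 8.3e-10 in limma) and rose from day 2 to day 4 (log2 0.69, SE 0.06, adjusted p = 1.81e-08 in limma). In WT neither step was called on the VST scale, with log2 differences of −0.05 and 0.33, and limma-voom called the second, at 0.71. The shift of the KO effect from day 0 to day 2 was −0.75 (SE 0.10, adjusted p = 1.86e-05 in limma).

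Fibroblasts of the feeder layer could be present at day 0, and their markers also differed between genotypes on that day. The 15 markers in the table (16 were listed) summed to 4405 to 4476 normalized counts in WT and 6465 to 7517 in KO at day 0. Of these, Col1a1, Col3a1 and Col1a2 were called higher in KO and Pdgfrb lower. Col1a1 was the most abundant, with 1471 and 1493 in WT and 2455 to 2994 in KO, and Lum was at 0 in all 6 libraries. Summed over the list, they came to 1642 ± 121 in WT and 1274 ± 162 in KO at day 2, and 11785 ± 409 in WT and 2274 ± 338 in KO at day 4 (SD, n = 2 and 4). The most abundant marker was Col1a1 in WT at day 2, and Col5a1 in KO at day 2 and in all libraries of day 4. The part of feeder cells in the values of Ccnd2 and Cdkn2a was not tested at any day. The markers did not move as one: at day 2, 6 of the 15 had a positive log2 fold change and 9 a negative one, and Thy1 alone was called (289 ± 26.4 in WT and 64.6 ± 16.7 in KO). Col5a1 made up 8774 ± 308 of the day 4 sum in WT.

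**Figure D2:**
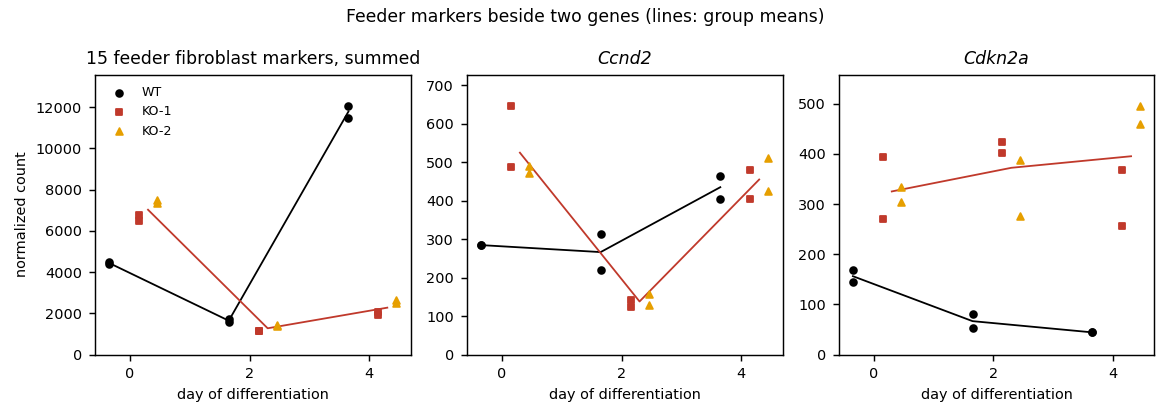
Normalized counts (y axes, linear, from 0) by day of differentiation (x axes) for the sum of 15 fibroblast markers, for Ccnd2 and for Cdkn2a, with a point per library and lines through the means of WT and KO. At day 0 all 3 are higher in KO. At day 4 the summed markers, mostly Col5a1 in WT, are lower in KO (1927 to 2633 against 11496 and 12074), and Cdkn2a is higher.

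Ccnd3 (ENSMUSG00000034165, chromosome 17) encodes cyclin D3. At day 0 there were 3706 and 3341 normalized counts in WT, 3239 and 3746 in KO-1, and 4075 and 3981 in KO-2, with overlap. Day 2 gave 1667 and 1517 in WT, 2399 and 2349 in KO-1, and 2597 and 2531 in KO-2. Day 4 gave 2140 and 1942 in WT, 2213 and 2702 in KO-1, and 2967 and 2817 in KO-2. The KO libraries were above WT at both later days, with a ratio of means of 1.55 at day 2 and 1.31 at day 4. In limma on the VST values the differences were log2 0.49 (SE 0.09, adjusted p = 0.00012) and 0.31 (SE 0.09, adjusted p = 0.00833), which did not reach the fold threshold, and limma-voom gave 0.63 at day 2, which did. Ccnd3 fell from day 0 to day 2 in WT (log2 −0.92, SE 0.10, adjusted p = 4.4e-07 in limma). In KO the same step was −0.50 (SE 0.07, adjusted p = 1.13e-05 in limma), under the fold threshold, and −0.61 with limma-voom, past it. The shift of its KO effect from day 0 to day 2 missed the threshold on p (log2 0.41, SE 0.12, adjusted p = 0.0214 in limma).

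Divided by the merged length of all annotated exons of each gene, the D cyclins changed their order during differentiation. These lengths were 4709 bases for Ccnd1, 9409 for Ccnd2 and 8775 for Ccnd3. The transcripts in use may be shorter, so the order of different genes per kilobase is uncertain. Without division, mean normalized counts in WT were 946 for Ccnd1 and 3523 for Ccnd3 at day 0, and 3200 and 2041 at day 4. In WT at day 0, Ccnd3 stood at 402 ± 29.5 normalized counts per kilobase of exon, Ccnd1 at 201 ± 24.4 and Ccnd2 at 30.2 ± 0.0410 (SD, n = 2). In WT at day 4, Ccnd1 stood at 680 ± 7.92, Ccnd3 at 233 ± 15.97 and Ccnd2 at 46.2 ± 4.47 (SD, n = 2). Ccnd2 was the lowest of the 3 in each of the 6 groups. Within each library, the level of Ccnd1 per kilobase over that of Ccnd3 was 0.435 and 0.573 in WT at day 0 and 0.346 to 0.646 in KO, and 1.57 and 1.61 in WT at day 2 and 1.68 to 1.90 in KO. By day 4 it was 2.81 and 3.05 in WT and 2.04 to 2.88 in KO, so the genotypes overlapped at day 0 and day 4. The 3 genes share exon sequence with genes on the opposite strand (1100 bases of Ccnd1 with LTO1, 740 bases of Ccnd2 with Gm43126 and 9330179D12Rik, and 361 bases of Ccnd3 with Bysl), and whether the counting used strand is not given in the sources used here, so their levels are uncertain over those stretches.

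Ccne1 (ENSMUSG00000002068, chromosome 7) encodes cyclin E1 and was lower in KO at day 0 and day 2, by less than the fold threshold. Normalized counts of day 0 were 2910 and 2856 in WT, 1998 and 2148 in KO-1, and 1965 and 2048 in KO-2. For day 2 they were 2847 and 2869 in WT, 2318 and 2189 in KO-1, and 2345 and 2218 in KO-2. For day 4 they were 2296 and 2330 in WT, 2026 and 2276 in KO-1, and 2414 and 2343 in KO-2. The groups were apart at the first 2 days and overlapped at day 4. The WT to KO ratio of means was 1.41, 1.26 and 1.02 at day 0, 2 and 4. In limma on the VST values these were log2 differences of −0.40 (SE 0.06, adjusted p = 2.51e-05), −0.27 (SE 0.06, adjusted p = 0.00079) and −0.03 (SE 0.06, adjusted p = 0.778). KO libraries showed no called step over time, and neither did WT, whose largest step was −0.25 from day 2 to day 4. Per kilobase of annotated exon, Ccne1 stood above each D cyclin in all 6 groups, at 1083 ± 14.5 in WT (SD, n = 2) and 766 ± 30.0 in KO (SD, n = 4) at day 0. This order depends on the lengths used. Without division, Ccnd3 was above Ccne1 in WT at day 0, with mean normalized counts of 3523 and 2883.

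Cdkn1a (ENSMUSG00000023067, chromosome 17), which encodes p21, went through a low at day 2 in WT that was shallower in KO. At day 0 there were 1654 and 1672 normalized counts in WT, 1185 and 1284 in KO-1, and 1148 and 1270 in KO-2. At day 2 there were 473 and 441 in WT, 1033 and 1062 in KO-1, and 886 and 782 in KO-2. At day 4 there were 1559 and 1705 in WT, 2043 and 2378 in KO-1, and 2759 and 2386 in KO-2. KO lay below WT at day 0 and above it at day 2 and day 4, with no overlap at any day. The KO to WT ratio of means was 0.735, 2.06 and 1.46 in that order. By limma on the VST values, KO differed from WT by log2 −0.32 at day 0 (SE 0.08, adjusted p = 0.00529), 0.60 at day 2 (SE 0.08, adjusted p = 6.16e-06) and 0.42 at day 4 (SE 0.08, adjusted p = 0.000303), and only the difference at day 2 passed both thresholds. It was close to the fold threshold on this scale, at 0.51 after quantile normalization, 0.49 with KO-2 alone and 0.56 to 0.57 without replicate 1 or 2 of KO-1 or replicate 2 of WT at day 2, none of which was called, and at 1.03 with limma-voom. In WT, Cdkn1a fell from day 0 to day 2 (log2 −1.18, SE 0.10, adjusted p = 5.18e-09 in limma) and rose from day 2 to day 4 (log2 1.15, SE 0.10, adjusted p = 4.36e-09 in limma). In KO the first step was −0.26 and was not called, and the second was a rise of 0.98 (SE 0.07, adjusted p = 1.15e-09 in limma). The KO effect was higher than at day 0 by 0.92 at day 2 (SE 0.12, adjusted p = 1.17e-05 in limma) and by 0.74 at day 4 (SE 0.12, adjusted p = 4.82e-05 in limma). An exon stretch of 273 bases overlaps AC167363.2 on the opposite strand.

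Cdkn1b (ENSMUSG00000003031, chromosome 6), which encodes p27, was called in no comparison on the VST scale. The day 0 libraries held 897 and 952 normalized counts in WT, 903 and 809 in KO-1, and 954 and 907 in KO-2. Those of day 2 held 883 and 705 in WT, 1139 and 1044 in KO-1, and 1086 and 999 in KO-2. Those of day 4 held 522 and 547 in WT, 687 and 620 in KO-1, and 762 and 776 in KO-2. The groups overlapped at day 0, and KO lay above WT at the later days, with ratios of means of 1.34 and 1.33. Limma on the VST values put these at log2 0.28 (SE 0.07, adjusted p = 0.00173) and 0.23 (SE 0.07, adjusted p = 0.00803), under the fold threshold. The lowest group mean of both genotypes was at day 4, 535 ± 17.3 in WT (SD, n = 2) and 711 ± 72.5 in KO (SD, n = 4). Limma-voom called the KO step from day 2 to day 4, at −0.59.

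Cdkn2a (ENSMUSG00000044303, chromosome 4) had the largest ratio between genotypes among the 10 genes at each day. At day 0 it had 169 and 144 normalized counts in WT, 270 and 393 in KO-1, and 304 and 334 in KO-2. At day 2 it had 52.1 and 81.0 in WT, 423 and 403 in KO-1, and 388 and 276 in KO-2. At day 4 it had 44.2 and 44.3 in WT, 257 and 369 in KO-1, and 496 and 460 in KO-2. Every KO library was above every WT library, and the order of the WT days was day 0, day 2, day 4 with no overlap, whereas the KO days overlapped. The KO to WT ratio of means was 2.08, then 5.59, then 8.94. Limma on the VST values gave log2 0.40 for day 0 (SE 0.10, adjusted p = 0.00319), under the fold threshold, 0.83 for day 2 (SE 0.10, adjusted p = 7.22e-07) and 0.97 for day 4 (SE 0.10, adjusted p = 5.12e-08). With limma-voom the values were 1.05, 2.49 and 3.13, and all 3 were called. No step between days was called within WT or within KO. The KO effect was higher at day 4 than at day 0 by 0.57 (SE 0.14, adjusted p = 0.00324 in limma), just under the fold threshold, and by 2.08 with limma-voom, which called it. Counts per gene do not separate the p16Ink4a and p19Arf transcripts, which share exons.

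**Figure D3:**
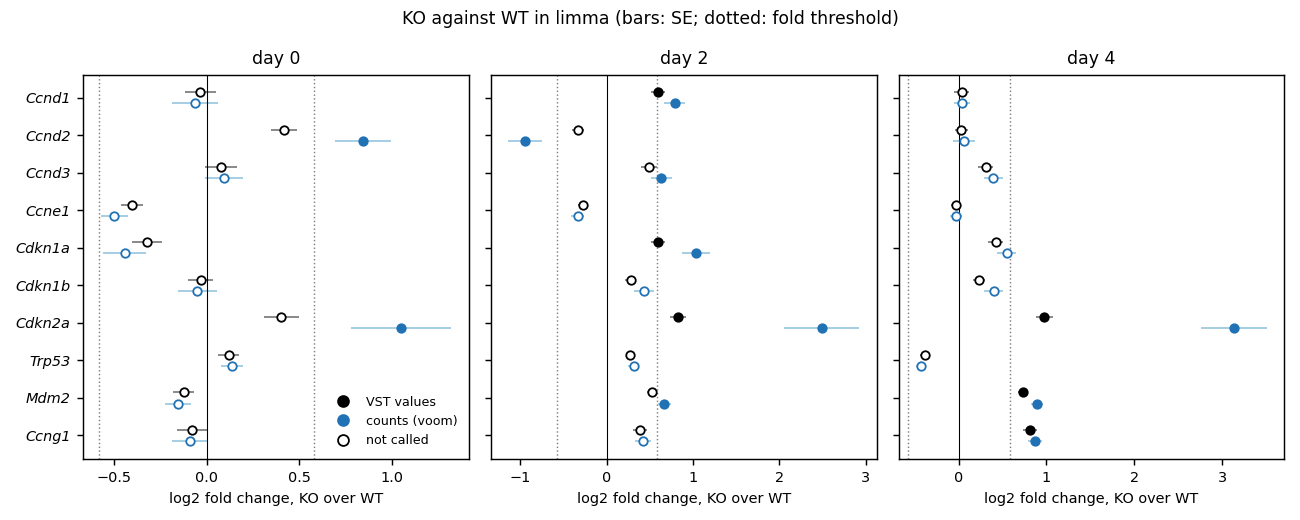
Log2 fold change of KO over WT (x axis, with a scale of its own for each day) for the 10 genes (y axis) at day 0, 2 and 4, from limma on VST values (black) and from limma-voom on counts (blue), with standard errors as bars, filled points where called and dotted lines at the fold threshold of 0.58. Cdkn2a lies farthest to the right on both scales at day 2 and day 4, at 0.97 on the VST scale and 3.13 with limma-voom at day 4, and no gene of the 10 is called lower on the VST scale.

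Trp53 (ENSMUSG00000059552, chromosome 11) had its genotypes in opposite order at day 2 and day 4. In WT at day 0 it stood at 1011 ± 11.3 normalized counts per kilobase of exon (SD, n = 2), near Ccng1 (1185 ± 55.2) and Ccne1. Before differentiation, WT held 4123 and 4058 normalized counts, with 4302 and 4483 in KO-1, and 4571 and 4624 in KO-2. At day 2 there were 3929 and 3752 in WT, 4727 and 4751 in KO-1, and 4887 and 4719 in KO-2. At day 4 there were 5856 and 5674 in WT, 4174 and 4497 in KO-1, and 4282 and 4144 in KO-2. KO lay above WT at day 0 and day 2 and below it at day 4, without overlap. The KO to WT ratio of means was 1.10, 1.24 and 0.741. In limma on the VST values the differences were log2 0.12 (SE 0.06, adjusted p = 0.115), 0.27 (SE 0.06, adjusted p = 0.000395) and −0.38 (SE 0.06, adjusted p = 8.82e-06), and none reached the fold threshold. The KO effect at day 4 was lower than at day 0, with a difference of −0.50 (SE 0.08, adjusted p = 4.31e-05 in limma), also under it. In WT the step from day 2 to day 4 was 0.52 (SE 0.06, adjusted p = 1.3e-06 in limma) on the VST scale and 0.58 with limma-voom, which called it.

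Mdm2 and Ccng1, both activated by p53 in response to stress, were called higher in KO than in WT at day 4, and neither passed the threshold on p at day 0. Mdm2 (ENSMUSG00000020184, chromosome 10) started at day 0 with 2797 and 2662 normalized counts in WT, 2462 and 2549 in KO-1, and 2465 and 2353 in KO-2. At day 2 there were 1628 and 1725 in WT, 2798 and 2741 in KO-1, and 2475 and 2666 in KO-2. At day 4 there were 1882 and 1845 in WT, 3495 and 3284 in KO-1, and 3616 and 3493 in KO-2. KO was below WT at day 0 and above it later, with ratios of means of 0.900, 1.59 and 1.86. By limma on the VST values the differences were log2 −0.12 (SE 0.06, adjusted p = 0.114), 0.53 (SE 0.06, adjusted p = 2.8e-07), short of the fold threshold, and 0.73 (SE 0.06, adjusted p = 1.57e-09). At day 2 it was called with limma-voom, at 0.67, and after centring each library on its median, at 0.58. The KO effect was higher than at day 0 by 0.65 at day 2 (SE 0.08, adjusted p = 9.58e-06 in limma) and by 0.85 at day 4 (SE 0.08, adjusted p = 7.11e-08 in limma). From day 0 to day 2, Mdm2 differed by −0.55 in WT (SE 0.07, adjusted p = 1.17e-06 in limma), under the fold threshold, and with limma-voom it fell by 0.71 on the log2 scale.

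Ccng1 (ENSMUSG00000020326, chromosome 11) encodes cyclin G1, which recruits a phosphatase to Mdm2 and, unlike the D and E cyclins, does not drive entry into S phase. Its day 0 values were 4023 and 4297 normalized counts in WT, 4272 and 3874 in KO-1, and 3784 and 3711 in KO-2. Its day 2 values were 5614 and 5533 in WT, 7634 and 7680 in KO-1, and 7207 and 7329 in KO-2. Its day 4 values were 5425 and 5621 in WT, 11119 and 8652 in KO-1, and 10059 and 10979 in KO-2. The groups overlapped at day 0 and were apart afterwards, with KO higher by a ratio of means of 1.34 at day 2 and 1.85 at day 4. In limma on the VST values KO exceeded WT by log2 0.38 at day 2 (SE 0.08, adjusted p = 0.000573), under the fold threshold, and by 0.81 at day 4 (SE 0.08, adjusted p = 5.05e-08), after a difference of −0.08 at day 0 (SE 0.08, adjusted p = 0.512). Within KO, Ccng1 rose from day 0 to day 2 (log2 0.84, SE 0.07, adjusted p = 2.86e-09 in limma) and differed by a further 0.41 from day 2 to day 4, which was not called. WT had 0.37 and −0.01 at those steps. The KO effect at day 4 was higher than at day 0 by 0.89 (SE 0.11, adjusted p = 3.82e-06 in limma).

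Set against Trp53 in the same library and per kilobase of exon, the 3 target genes stood higher in KO than in WT at day 4. Mdm2 over Trp53 was 0.256 and 0.259 in WT and 0.581 to 0.672 in KO. Cdkn1a over Trp53 was 0.303 and 0.342 in WT and 0.557 to 0.734 in KO. Ccng1 over Trp53 was 1.07 and 1.14 in WT and 2.22 to 3.07 in KO. At day 2 the genotypes were apart in the same order for Mdm2 (0.330 and 0.366 in WT, 0.403 to 0.471 in KO) and for Cdkn1a (0.134 and 0.137 in WT, 0.189 to 0.255 in KO), while Ccng1 overlapped (1.65 and 1.70 in WT, 1.70 to 1.86 in KO). At day 0 the order was the other way for Mdm2 (0.522 and 0.540 in WT, 0.405 to 0.455 in KO) and for Cdkn1a (0.457 and 0.469 in WT, 0.286 to 0.326 in KO), while the ranges of Ccng1 overlapped (a mean of 1.17 ± 0.0676 in WT and 1.00 ± 0.0974 in KO, SD, n = 2 and 4). These ratios are descriptions, since an exact permutation test of 4 libraries against 2 cannot give a two-sided p under 0.0667.

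Promoter sequences from RefSeq on GRCm38.p6, from 250 bases before to 50 after each start, were on hand for 8 of the 10 genes (11 promoters). They were searched for the half-site of the p53 consensus, a motif of 10 letters that is its own reverse complement and so is read on both strands at once, and for the E2F motifs TTTCCCGC, TTTGGCGC, TTTCGCGC and TTTGCCGC on both strands. The half-site was in 2745 of 32851 promoters (8.36%), in 4 of the 11 promoters of these genes and in 12 of 48 promoters of 34 other listed Trp53 target genes (25%). The windows below are the 4 with a half-site, since 3 of them belong to the target genes whose KO effect changed with time, and the 1 window with an E2F motif, each printed 5′ to 3′ on the strand of the gene with the match in capitals and 25 bases on each side of it.
Cdkn1a, chr17:29090881-29090962, plus strand: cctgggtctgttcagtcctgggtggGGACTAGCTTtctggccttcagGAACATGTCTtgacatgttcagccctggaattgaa
Mdm2, chr10:117710910-117710969, minus strand: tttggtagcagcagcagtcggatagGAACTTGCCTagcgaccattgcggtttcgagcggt
Ccng1, chr11:40755437-40755496, minus strand: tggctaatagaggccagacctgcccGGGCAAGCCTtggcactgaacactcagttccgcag
Trp53, chr11:69580259-69580318, plus strand: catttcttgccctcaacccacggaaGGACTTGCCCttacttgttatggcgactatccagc
Cdkn2a, chr4:89294686-89294743, minus strand: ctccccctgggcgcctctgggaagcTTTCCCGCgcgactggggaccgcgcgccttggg
All windows lie upstream of an annotated start of their gene. The 2 half-sites of Cdkn1a begin 73 and 51 bases before the upstream of its starts, and the promoter at its other start had none. The half-sites of Mdm2, Ccng1 and Trp53 begin 186, 185 and 75 bases before the start. The E2F motif of Cdkn2a begins 99 bases before the upstream of its starts, and E2F motifs were in 744 of all promoters (2.26%). A match describes the letters of these windows and is not a measurement of binding.

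Wider lists place the 10 genes among other members of the pathways, with the 10 left out of them. Of 30 G1 to S regulators, the number called higher in KO was 2 at day 0, then 4, then 3, and none was called lower, beside 2.61%, 6.38% and 7.58% of all genes called in either direction. Limma-voom called 6, 9 and 7 higher, and 1 lower at day 4, beside 13.3%, 23.9% and 23.9% of all genes. The median log2 fold change of this list on the VST scale was 0.11, 0.18 and 0.01, beside medians of 0.00 to −0.02 over all genes. Rb1, which encodes the retinoblastoma protein, had a mean normalized count of 396 ± 17.2 for WT (SD, n = 2) and 937 ± 31.7 for KO (SD, n = 4) at day 0. The means were 285 ± 20.8 and 1127 ± 44.5 at day 2, and 275 ± 4.41 and 811 ± 126 at day 4. It was called higher at each day, by 0.70, 1.09 and 0.80 on the log2 VST scale. Cdk6, a partner of the D cyclins, was higher in KO at day 0 (log2 0.93, SE 0.12, adjusted p = 3.5e-06 in limma), and its mean normalized count was 418 ± 56.2 for WT (SD, n = 2) and 1241 ± 189 for KO (SD, n = 4). Tfdp2, which encodes a dimer partner of E2F factors, was higher by 0.84 at day 2 and by 1.07 at day 4 on the log2 VST scale (adjusted p = 5.9e-08 and 9.75e-10 in limma). In WT from day 2 to day 4, Tfdp2 fell by 0.69 and Ccne2, which encodes cyclin E2, rose by 0.65 on the same scale. After quantile normalization 2 rather than 4 genes of the list were called at day 2.

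Of 30 replication and repair genes known as E2F targets, none was called at day 0 by limma on the VST values, 1 was higher at day 2 and 2 were higher at day 4. Over all genes the shares called were 2.61%, 6.38% and 7.58%. At day 0, 12 of the list had an unadjusted p under 0.05, beside 39.4% of all genes. With limma-voom 1 was lower at day 0, 2 were higher and 3 lower at day 2, and 5 were higher and 2 lower at day 4, beside 13.3%, 23.9% and 23.9% of all genes. The median log2 fold change was −0.04, 0.09 and 0.23. Msh6, of mismatch repair, was higher by 0.77 at day 2 and by 1.34 at day 4 (adjusted p = 1.04e-05 and 3.74e-09 in limma), and it fell by 1.16 on the log2 scale in WT from day 2 to day 4. Mcm6, a subunit of the replicative helicase, was higher by 0.61 at day 4 (adjusted p = 3.57e-07 in limma).

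Of 43 further Trp53 target genes, none was called at day 0 by limma on the VST values, 4 were higher and none lower at day 2, and 6 were higher and 2 lower at day 4. These counts stand beside 2.61%, 6.38% and 7.58% of all genes called in either direction. At day 0, 18 of the list had an unadjusted p under 0.05, beside 39.4% of all genes. Limma-voom called 3 at day 0, all lower in KO, 11 higher and 2 lower at day 2, and 12 higher and 5 lower at day 4, beside 13.3%, 23.9% and 23.9% of all genes. The median log2 fold change of the list was −0.05, 0.13 and 0.23 at the 3 days, with the same signs under centring, quantile normalization and limma-voom. The KO effect was higher at day 2 than at day 0 for 8 of the 43 and lower for none, beside 3.19% of all genes called in either direction, and at day 4 it was higher for 9 and lower for 1, beside 6.93%. Trp53inp1, which encodes a stress-induced p53 cofactor, had a mean normalized count of 6532 ± 233 for WT (SD, n = 2) and 5352 ± 561 for KO (SD, n = 4) at day 0. The means were 3958 ± 394 and 9260 ± 305 at day 2, and 4294 ± 54.5 and 9441 ± 1212 at day 4. It was higher in KO by 1.11 and then 1.03 on the log2 VST scale (adjusted p = 7.46e-09 and 1.35e-08 in limma). Eda2r, a receptor of the tumour necrosis factor receptor family, was higher by 0.86 at day 2 and by 1.14 at day 4 (adjusted p = 3.15e-08 and 3.04e-10 in limma). Perp, which encodes a membrane protein of apoptosis and desmosomes, went the other way at day 4, with a mean normalized count of 2459 ± 75.0 for WT (SD, n = 2) and 585 ± 9.94 for KO (SD, n = 4). The difference was −1.42 on the log2 VST scale (SE 0.05, adjusted p = 1.29e-14 in limma), and it rose by 1.54 in WT from day 2 to day 4. Btg2, an antiproliferative gene, was lower at day 4 with a log2 fold change of −0.58 (adjusted p = 6.57e-07 in limma), at the fold threshold. Under centring and under quantile normalization 1 gene of the list rather than 2 was called lower at day 4.

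Of 30 regulators and relatives of Trp53, 2 were called higher at day 0 and none lower, 3 higher and 4 lower at day 2, and 5 higher and 1 lower at day 4, beside 2.61%, 6.38% and 7.58% of all genes. Limma-voom called 2 higher and 1 lower, 3 higher and 6 lower, and 5 higher and 3 lower in the order of the days, beside 13.3%, 23.9% and 23.9% of all genes. The median log2 fold change was 0.01, −0.02 and 0.10 in the order of the days, and its sign turned under quantile normalization at day 0 (−0.02) and under centring at day 2 (0.03). Hipk2, a kinase that phosphorylates p53, was higher in KO at each day, by 0.83, 1.04 and 0.91 on the log2 scale. Bmi1, a Polycomb protein known as a repressor of the Cdkn2a locus, was also higher at each day, by 0.70, 0.84 and 0.80. Its mean normalized count was 77.2 ± 46.2 for WT (SD, n = 2) and 324 ± 37.8 for KO (SD, n = 4) at day 0, then 127 ± 27.1 and 525 ± 40.3 at day 2, and 94.3 ± 16.7 and 423 ± 39.4 at day 4. Rpl11, a ribosomal protein that binds Mdm2, was lower at day 2, at log2 −0.82 (adjusted p = 1.35e-05 in limma). Reads of ribosomal protein genes can be shared with their processed pseudogenes, so its level is uncertain. Kmt5a, a methyltransferase that modifies histone H4 and p53, was lower at day 2, at log2 −0.77 (adjusted p = 7.77e-09 in limma). Ppp1r13l, an inhibitor of p53, was lower at day 4, at log2 −0.66 (adjusted p = 3.43e-08 in limma) and rose by 0.62 in WT from day 2 to day 4, while Cbx7, another Polycomb protein, fell by 0.86 in WT at that step.

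**Figure D4:**
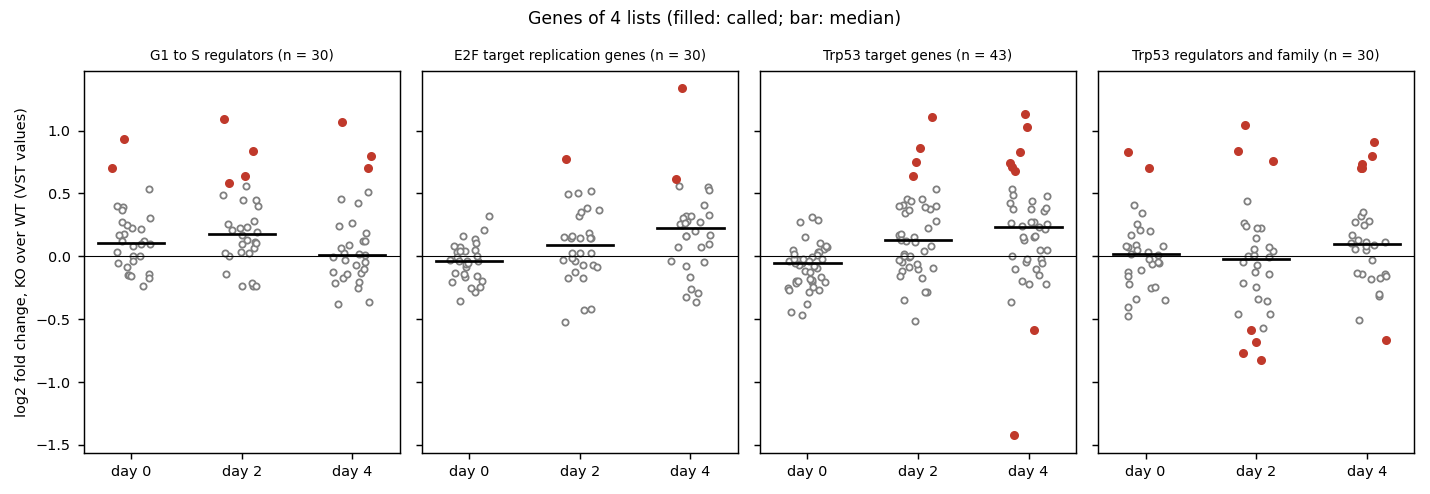
Log2 fold change of KO over WT on the VST scale (y axis) for the genes of 4 lists at day 0, 2 and 4 (x axis), with a point per gene, filled where called, and a bar at the median. The median of the Trp53 target genes goes from −0.05 through 0.13 to 0.23 over the 3 days, and Perp is the lowest point, at −1.42.

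Between days, the 10 genes were called as follows by limma on the VST values. From day 0 to day 2, 2 fell in WT (Ccnd3 and Cdkn1a) and none rose, beside 6.68% of all genes called, and from day 2 to day 4, 2 rose (Ccnd1 and Cdkn1a) and none fell, beside 8.76%. In KO, 2 rose from day 0 to day 2 (Ccnd1 and Ccng1) and 1 fell (Ccnd2), beside 3.2%, and 2 rose from day 2 to day 4 (Ccnd2 and Cdkn1a) and none fell, beside 1.49%. The KO effect differed from that of day 0 for 4 of the 10 at day 2 (Ccnd1, Cdkn1a and Mdm2 upwards and Ccnd2 downwards), beside 3.19% of all genes, and for 3 at day 4 (Cdkn1a, Mdm2 and Ccng1, all upwards), beside 6.93%. Limma-voom added Mdm2 downwards to the first step in WT (3 of the 10 called, beside 19.5% of all genes) and Ccnd2 and Trp53 upwards to the second (4 called, beside 24.1%). In KO it added Ccnd3 downwards to the first step (4 called, beside 16.3%) and Cdkn1b downwards to the second (3 called, beside 10.3%). For the KO effect it called the same 4 genes at day 2, beside 7.34%, and at day 4 it added Cdkn2a upwards (log2 2.08) and Ccnd2 downwards (log2 −0.78), for 5 in all, beside 14.9%.

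The 2 KO clones were also compared with each other. At none of the 3 days was any of the 10 called between the clones by limma on the VST values or by limma-voom, beside 0.029%, 0.0435% and 0.251% of all genes on the VST scale. At an unadjusted p under 0.05 there were 2, 1 and 4, beside 14.8%, 12.3% and 25.3% of all genes. The largest differences were in Ccnd1 at day 0, higher in KO-1 by 0.31 (SE 0.06, adjusted p = 0.022 in limma), and in Cdkn2a at day 4, lower in KO-1, with a difference of −0.30 (SE 0.08, adjusted p = 0.0221 in limma).

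For the 3 genes whose 6 group means spanned more than 1 on the VST scale, the genes with the most similar course were found by Pearson's r over the 9 means of line and day, as a description. Ccnd1 was followed most closely by Pmpca (r = 0.99), Msl1 (r = 0.98) and Paxbp1 (r = 0.98). Nearest to Cdkn1a were Fbxw9 (r = 0.93), Fbxo34 (r = 0.91) and Timm29 (r = 0.91). Nearest to Ccng1 were Pik3r3 (r = 0.99), Aen (r = 0.98) and Ralgps2 (r = 0.98). The 9 means share the libraries' depth and the day of collection.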

How the data were processed

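The 18 libraries were matched to groups by the labels. The authors trimmed reads with Trim Galore 0.6.7, aligned them to mm39 with STAR 2.7.11a, counted them on exons with featureCounts 2.0.6, dropped weakly counted genes and deposited log2 values from the variance stabilizing transformation of DESeq2 1.42.0, per the labels and methods of the study. A count of 0 has the value 8.36. Inversion gave a whole number within 0.05 of a count for 100% of the values, and the libraries held a median of 15721348 counts. Most counts from 1 to 20 were even (72.5% to 77.5% per library), for a reason not given in the sources used here.

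Fits used R 4.3.3 with limma 3.58.1. In the main fit, limma used the VST values of all 20703 genes and a trended prior, with 6 groups of genotype and day, KO-1 and KO-2 pooled, and the clones were compared in a fit of 9 groups. Thresholds are those of the study. Alternatives were limma-voom, centring, quantile normalization, dropping genes below the 25th percentile of mean VST, no trend, each day alone, each clone alone, a replicate block, looser thresholds, and each library left out. The labels do not say that replicate numbers pair libraries. Fits were tested on simulated data.

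The 10 genes and all lists were chosen with earlier results of these data known. The text names the 10 genes, Nsd1, from each list the 2 largest rises and falls among called genes at each day and the largest in each direction in WT from day 2 to day 4, and the 3 nearest genes by correlation (mean normalized count of at least 100) for each of the 10 that ranged over more than 1 between groups. Feeder markers and the lesser genes of lists are summarized. Genes named after their values were seen were Col1a1, Col3a1, Col1a2, Col5a1, Pdgfrb, Thy1, Sox2, Esrrb, Tdgf1, Otx2, Nes, Tubb3, Sox1, Lamb1 and Tfap2c. Exon lengths and overlaps came from GENCODE M21 on GRCm38, not the mm39 of the authors.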

Additional observations from a re-analysis of the deposited data

Results flagged for a closer look

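Among the 4 KO libraries of a day, 2 values stood far from the others, and chance alone marks about 1 group in 20 in this way. Each of the 10 genes was checked at each day, so a number near 2 comes by chance alone. Both were in replicate 1 of KO-1, at day 0 and at day 4, and these are the 2 pairs of replicates that differed most over all genes. Ccnd2 in KO-1 replicate 1 at day 0 had 647.2 normalized counts, and its gap to the next library was 0.889 of the range of the group. Ccnd1 in KO-1 replicate 1 at day 4 had 3420 normalized counts, with a gap of 0.89 of a narrow range. Without the first of these libraries the day 0 fold change of Ccnd2 was 0.36 on the VST scale.

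The KO effect changed between days, by the interaction of genotype and day in limma, for 5 of the 10 genes. From day 0 to day 2 the log2 fold change shifted by 0.63 for Ccnd1, −0.75 for Ccnd2, 0.92 for Cdkn1a and 0.65 for Mdm2. The shift of Ccnd1 was 0.55 to 0.58, and not called, without single libraries of WT at day 0, WT at day 2 or KO-2 at day 0. From day 0 to day 4 it shifted by 0.74 for Cdkn1a, 0.85 for Mdm2 and 0.89 for Ccng1.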

How the results depend on the processing

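Limma-voom and the looser thresholds (adjusted p under 0.05, any fold) gave more calls over all genes in each comparison, by construction for the latter. Over all genes, limma-voom called 2752, 4949 and 4957 for KO against WT at day 0, 2 and 4 (541, 1321 and 1569 on the VST scale), 4043 and 4988 for the WT steps, 3384 and 2140 for the KO steps, 1520 and 3085 for the KO effect at day 2 and 4 against day 0, and 33, 48 and 462 between clones. The looser thresholds gave 6149, 9515 and 7700, then 8399 and 8755, 7390 and 4900, 4494 and 5580, and 114, 200 and 2645 in the same order. Among the 10 genes, limma-voom called 2 for KO against WT at day 0, 6 at day 2, 4 for WT from day 2 to day 4 and 5 for the KO effect at day 4. With looser thresholds there were 4, 10 and 7 for KO against WT, 6 and 7 for the WT steps, 6 and 7 for the KO steps, 8 and 8 for the KO effect, and 1 between clones at day 0 and at day 4. Quantile normalization left 1 of the 10, Cdkn2a, called at day 2. With KO-2 alone the KO effect at day 2 was called for 1002 genes against 660. Under limma-voom the median over all genes lay at −0.14 for KO against WT at day 2 and at −0.17 for WT from day 2 to day 4. It also moved the share of calls that were higher, from 66.4% to 48.4% at day 0 and from 62.9% to 43.2% at day 2.

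Leaving out each library in turn gave 1 to 3 of the 10 genes at day 2, with 1 without replicate 2 of WT at day 2, and between clones 4 to 54 genes at day 0 (54 without KO-1 replicate 2) and 21 to 194 at day 4 (194 without KO-1 replicate 2, 22 without KO-1 replicate 1 and 21 without KO-2 replicate 1). Small differences turned sign. Ccnd1 at day 0 was 0.12 with KO-1 alone and −0.12 to 0.0455 without single libraries, Ccnd3 at day 0 was −0.012 with KO-1 alone, and Cdkn1b at day 0 was 0.0055 with KO-2 alone. Ccnd2 at day 4 ranged from −0.0176 to 0.081 without single libraries, and Ccne1 at day 4 was 0.0011 after centring, 0.032 with KO-2 alone and −0.0515 to 0.0152 without single libraries. The cause of these shifts was not tested. The differences of Cdkn2a at day 2 and of Cdkn2a, Mdm2 and Ccng1 at day 4 kept their direction and call under every alternative run.

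With the replicate number as a block, 540, 1315 and 1568 genes were called for KO against WT, and no call among the 10 genes changed. Deviations of libraries with the same number correlated by −0.05 on average over 36 pairs of groups (−0.62 to 0.64), and in 4 of 9 pairs of the same day r was over 0.1, so the numbers were not taken to pair libraries. The WT libraries of day 2 had the lowest depth.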
